A study of Rattus norvegicus with 30 samples.

Results

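In rats whose lungs are injured in the course of severe acute pancreatitis (SAP), 10 genes of NF-kB feedback and output were followed over lung transcriptomes. They are Nfkbia, Nfkbiz, Nfkb1, Nfkb2, Relb, Tnfaip3, Tnip1, Birc3, Tnf and Zc3h12a, chosen by name from a table of 22914 genes. RNA-seq had been made from the lungs of male Sprague Dawley rats, 8 weeks old, in 10 groups of 3 rats, 1 library per rat. In the SAP groups 5.0% sodium taurocholate was infused into the biliopancreatic duct. DEX and Emo rats were given the same infusion and then, at 2 h and 12 h, dexamethasone (10 mg/kg, into a vein) or emodin by gavage, a plant anthraquinone whose dose is written as 40 mg/kg in the treatment protocol and as 10 mg/kg in the sample descriptions. In the Con groups saline was infused into the duct, and in the Sham groups the pancreas was only turned slightly. All rats were fasted and anaesthetised, and rats without a drug were given its vehicle. Lungs were taken at 6 h, when only the earlier of the 2 doses had been given, or at 24 h. Group names join the treatment and the time, as in SAP-24h.

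NF-kB is a family of dimeric transcription factors that inhibitor proteins hold in the cytoplasm. Receptors for cytokines and bacterial products release it through a kinase complex that marks the inhibitor for destruction, and the freed factor switches on cytokines, chemokines and adhesion molecules in lung epithelium, endothelium and leukocytes. Among its targets are its own brakes, so the mRNAs of these brakes are often read beside those of the cytokines. Nfkbia encodes the classical inhibitor, IkB alpha. Tnfaip3 encodes a ubiquitin-editing enzyme that shuts receptor complexes down, and Tnip1 a protein that binds ubiquitin chains and works with it. Zc3h12a encodes an endoribonuclease that destroys inflammatory mRNAs. Nfkb1, Nfkb2 and Relb encode subunits of the factor, of which the first pair are made as precursors. Nfkbiz encodes a nuclear co-regulator needed for a late set of targets such as Il6, Birc3 a ubiquitin ligase at the tumour necrosis factor receptor, and Tnf the cytokine itself.

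Promoter windows from RefSeq (GRCr8, 250 bases before to 50 bases after the annotated start) were matched by symbol for 8 of the 10 genes, all but Relb and Birc3. They were searched on both strands for the NF-kB consensus motif (kappaB, 10 letters). It was found in 6 of these 8 windows, against 2515 of 33469 windows in the genome (7.51%). It was in 11 of 51 windows of the other pathway genes described further on (21.6%) and in 9 of 24 windows of NF-kB target genes (37.5%). The consensus motif of the glucocorticoid receptor was in 0 of the 8 windows and in 0.439% of all windows. The windows of Nfkbia, Nfkb2, Tnfaip3 and Tnip1 are printed as examples, 1 subunit and 3 inhibitors of the pathway whose levels are given further on, with kappaB matches in capitals, reading towards the gene.
Nfkbia, chr6:78597023-78597322, minus strand: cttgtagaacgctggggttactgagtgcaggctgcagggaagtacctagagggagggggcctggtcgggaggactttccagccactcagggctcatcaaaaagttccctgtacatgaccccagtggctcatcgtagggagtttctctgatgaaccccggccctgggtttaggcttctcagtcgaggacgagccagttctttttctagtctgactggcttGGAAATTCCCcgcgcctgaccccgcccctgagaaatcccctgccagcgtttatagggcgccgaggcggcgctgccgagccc
Nfkb2, chr1:255108124-255108423, plus strand: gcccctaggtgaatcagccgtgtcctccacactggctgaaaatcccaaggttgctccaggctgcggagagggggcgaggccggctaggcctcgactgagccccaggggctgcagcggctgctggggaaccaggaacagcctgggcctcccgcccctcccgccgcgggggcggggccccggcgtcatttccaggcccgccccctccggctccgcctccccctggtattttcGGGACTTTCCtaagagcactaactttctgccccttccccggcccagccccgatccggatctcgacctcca
Tnfaip3, chr1:15543930-15544229, minus strand: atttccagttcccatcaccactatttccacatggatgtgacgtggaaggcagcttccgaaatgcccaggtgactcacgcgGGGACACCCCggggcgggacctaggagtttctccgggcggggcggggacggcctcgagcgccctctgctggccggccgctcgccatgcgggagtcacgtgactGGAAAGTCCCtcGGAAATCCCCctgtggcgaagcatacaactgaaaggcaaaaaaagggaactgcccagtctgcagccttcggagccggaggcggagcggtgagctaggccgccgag
Tnip1, chr10:39584912-39585211, minus strand: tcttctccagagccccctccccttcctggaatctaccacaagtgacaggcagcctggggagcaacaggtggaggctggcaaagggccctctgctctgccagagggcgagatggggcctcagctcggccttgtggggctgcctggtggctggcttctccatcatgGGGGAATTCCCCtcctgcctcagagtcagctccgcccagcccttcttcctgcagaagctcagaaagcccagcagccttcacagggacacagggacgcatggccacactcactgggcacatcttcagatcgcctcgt
Nfkb2 has 1 match, which begins 20 bases before the start. Nfkbia has 1 match on the opposite strand, at 31 bases before the start. Tnfaip3 has matches at 3 positions, 170, 67 and 55 bases before the start, and the 3 positions in Tnip1 overlap each other. The windows of Nfkbiz and Nfkb1 hold 1 match each, and those of Zc3h12a and Tnf hold none. A match is a description of these letters and not a binding site that was measured.

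Libraries held 16813806 to 34691795 reads on genes. In the authors' mapping summary, every SAP, DEX and Emo library had a lower share of uniquely mapped reads than every Con and Sham library. This split lies along every comparison of SAP, DEX or Emo with Sham or Con. Its part in those differences cannot be told apart from that of the treatment. Lung identity was clear in each group, with surfactant protein C (Sftpc) at 12733 FPKM or more in every library. FPKM, fragments scaled to gene length and library depth, compares levels between genes, and read counts were used for tests. A gene was called where edgeR's quasi-likelihood test gave a Benjamini-Hochberg adjusted p under 0.05 over the 15932 genes that passed a filter on low counts. In whole lung, more cells of a type and more RNA per cell cannot be told apart.

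Of the 10 genes, 9 passed the filter. Tnf did not: its symbol stands on 2 rows, both on chromosome 20, which together received 18 reads in the 30 libraries. No read fell on it in 23 libraries, and the most was 6 reads, in SAP-24h rat 3. A count of 0 allows up to 3 reads, which is 0.0865 to 0.178 CPM (counts scaled to library size) depending on the library. Reads that match both rows equally would have been discarded as multi-mapped by the authors, and the part of this in the low count was not tested. Tnf mRNA is therefore not compared here.

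Nfkbia was by far the most abundant of the 9, with a median of 334 FPKM over the 30 libraries. Tnip1 followed at 60.0 FPKM, then Nfkb1 at 23.9 and Nfkb2 at 18.0. The other 5 genes had medians of 6.52 FPKM (Relb), 5.74 (Zc3h12a), 3.88 (Nfkbiz), 3.68 (Birc3) and 3.59 (Tnfaip3). The fewest reads on any of the 9 in a library were 121, for Birc3. Nfkb1 and Tnip1 varied little, with a highest library 1.68 and 1.81 times the lowest, whereas Birc3 varied 7.47-fold and Nfkbia 5.29-fold.

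**Figure D1:**
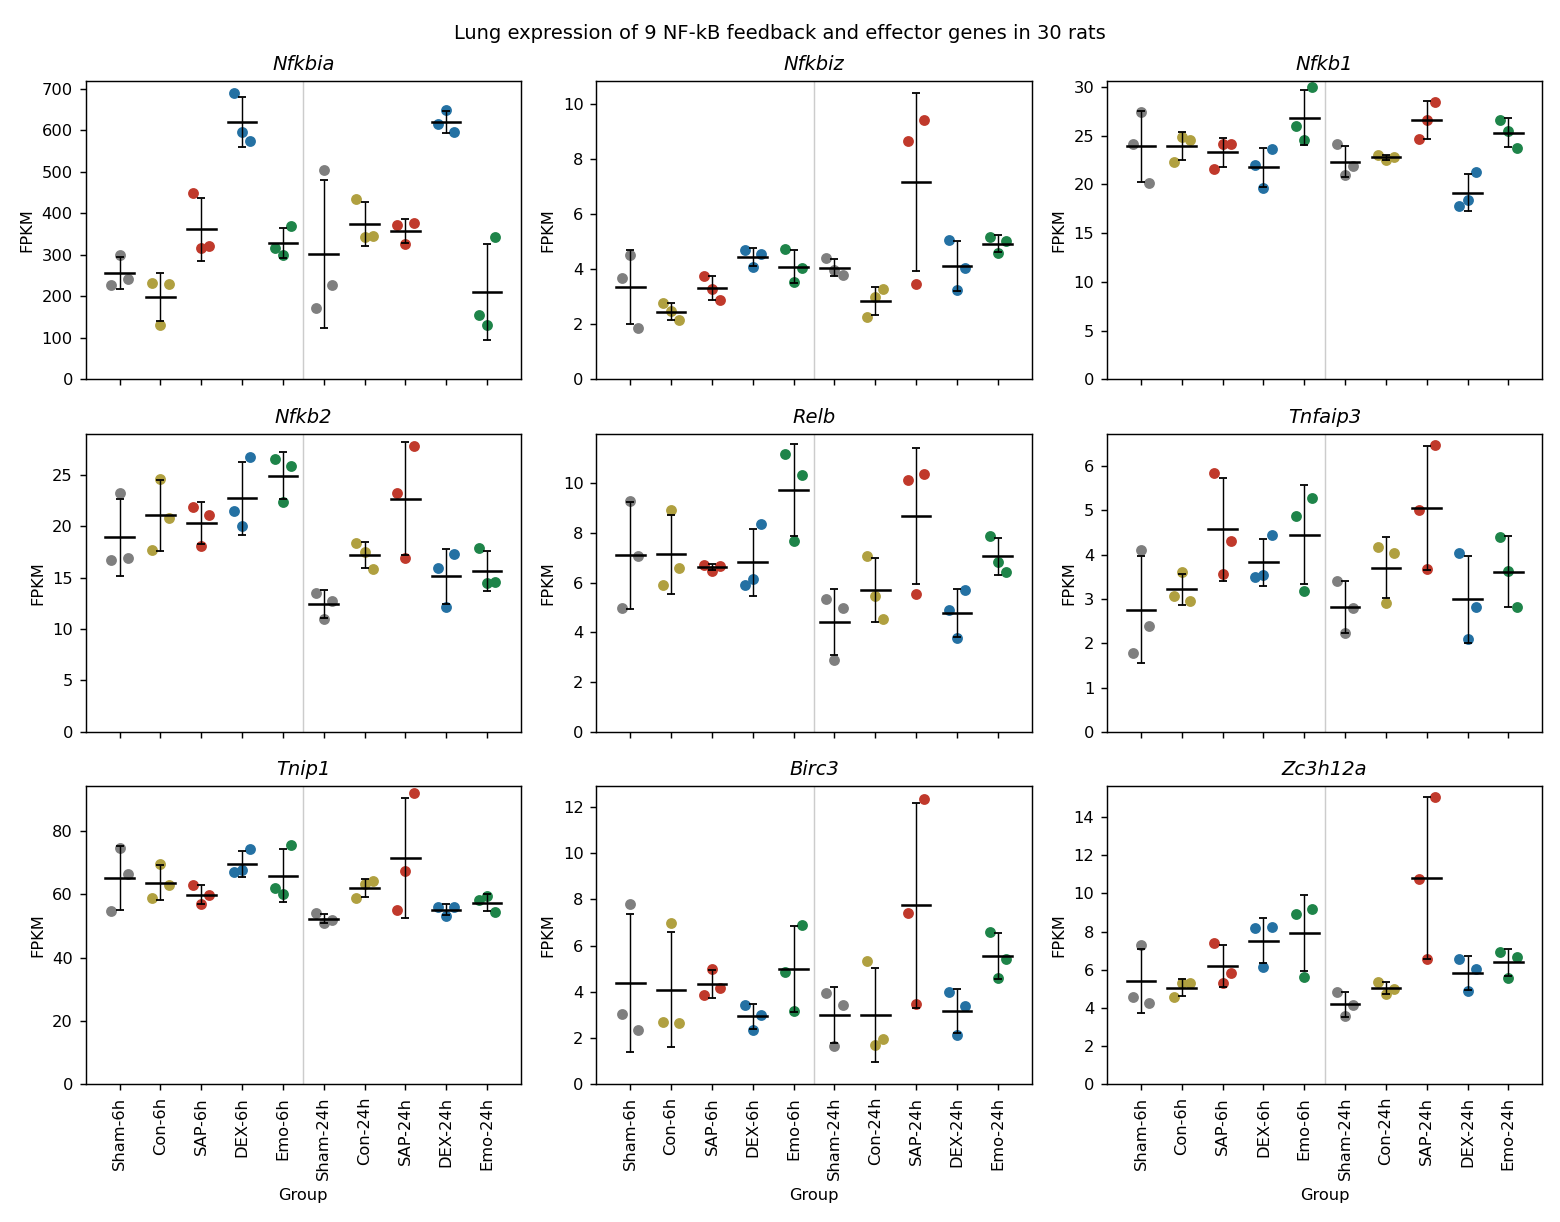
FPKM (linear axis from 0) of the 9 tested genes in the 10 groups; each point is 1 rat, the bar is the mean and the error bar 1 SD (n = 3). Nfkbiz, Tnfaip3, Tnip1, Birc3 and Zc3h12a have their highest group mean in SAP-24h and Nfkb1, Nfkb2 and Relb in Emo-6h, while Nfkbia is highest in DEX-6h and DEX-24h.

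The comparison of SAP with Sham asks what taurocholate pancreatitis does to the lung, across the split in mapping described above. At 24 h, 7 of the 9 genes were higher in SAP-24h and none was lower, where 6.79% of all genes tested were called higher. With library totals in place of TMM scaling 4 were called (Nfkb2, Relb, Tnip1 and Zc3h12a). The median log2 fold change of the 9 was 0.98, against -0.03 over all genes. Brakes and subunits were both among them. Genes called with a change of at least 2-fold were 2 of the 9 (Zc3h12a and Relb), against 4.98% of all genes. In 6 of the 9 the SAP-24h libraries all lay above the Sham-24h libraries in FPKM, as they did for 7.58% of all genes.

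Among the brakes, the ribonuclease gene Zc3h12a stood at 10.8, 6.59 and 15.1 FPKM in the 3 SAP-24h rats and at 4.86, 3.58 and 4.14 FPKM in the Sham-24h rats. The groups did not overlap, and the rise was 2.82-fold (log2 1.50 ± 0.24 SE, n = 3 and 3, adjusted p = 0.00106 by edgeR). Tnip1 stood at 54.9, 67.4 and 92.1 FPKM against 54.1, 51.0 and 52.0. The lowest SAP-24h rat was only just above the Sham-24h range, and the log2 rise was 0.57 ± 0.12 (adjusted p = 0.00557 by edgeR). Tnfaip3 stood at 5.01, 3.67 and 6.49 FPKM against 3.41, 2.23 and 2.80. These groups were also apart, by a small gap between SAP-24h rat 2 and Sham-24h rat 1, and the log2 rise was 0.98 ± 0.29 (adjusted p = 0.0286 by edgeR). Nfkbia, the classical inhibitor, was not called. It stood at 373, 325 and 377 FPKM in SAP-24h and at 171, 504 and 228 FPKM in Sham-24h. Sham-24h rat 2 lay above every SAP-24h rat, and the log2 difference of 0.37 ± 0.34 had an adjusted p of 0.512 by edgeR, with a 95% interval from -0.34 to 1.07 that also holds the values of Tnip1 and Tnfaip3. It was called in none of the 6 fits that left out 1 library, which ranged from 0.10 without Sham-24h rat 1 (adjusted p = 0.901) to 1.01 without Sham-24h rat 2 (adjusted p = 0.0690).

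Among the subunits, Nfkb2 stood at 23.3, 16.9 and 27.8 FPKM in SAP-24h and at 13.6, 10.95 and 12.8 FPKM in Sham-24h. All SAP-24h rats were higher, and the log2 rise was 1.00 ± 0.17 (adjusted p = 0.00113 by edgeR). Its dimer partner Relb stood at 10.1, 5.54 and 10.4 FPKM against 5.35, 2.88 and 4.96. SAP-24h rat 2 came close to Sham-24h rat 1, and the log2 rise was 1.12 ± 0.26 (adjusted p = 0.00787 by edgeR). Nfkb1 moved least, from 22.4 ± 1.6 to 26.6 ± 1.9 FPKM (SD, n = 3 each), a log2 rise of 0.38 ± 0.09 (SE, adjusted p = 0.0120 by edgeR).

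The co-regulator gene Nfkbiz stood at 8.63, 3.47 and 9.41 FPKM in SAP-24h and at 4.41, 3.96 and 3.79 FPKM in Sham-24h. Rats 1 and 3 were well above the Sham-24h range while rat 2 was below it, so the groups overlapped. The log2 rise was 0.96 ± 0.28 (adjusted p = 0.0281 by edgeR). Birc3 stood at 7.39, 3.49 and 12.3 FPKM against 3.97, 1.65 and 3.42. Its log2 difference of 1.49 ± 0.50 was as large as that of Zc3h12a but, with this spread, was not called (adjusted p = 0.0504 by edgeR).

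The 3 SAP-24h rats were unlike each other. Rat 2 had the lowest SAP-24h level for 7 of the 9 genes and rat 3 the highest for all 9. Rat 3 also held the highest level of all 30 libraries for 6 genes. Without rat 2, 8 of the 9 genes were called, Birc3 among them (adjusted p = 0.0199 by edgeR), and without rat 3 or rat 1, 5 were called. Leaving out 1 library at a time, Zc3h12a, Nfkb2, Relb, Tnip1 and Nfkb1 kept their call in all 6 fits. Tnfaip3 lost it without SAP-24h rat 1 or 3 or Sham-24h rat 2 or 3 (adjusted p 0.0556 to 0.107 by edgeR), and Nfkbiz lost it in every fit but the one without SAP-24h rat 2 (adjusted p 0.0598 to 0.127). A model of the 2 groups alone, with 6 libraries, called 0 of the 9 and 3 of all genes. Sham-24h had the lowest mean of the 10 groups for Nfkb2, Relb, Tnip1 and Zc3h12a. Sham-24h rat 2 held the lowest level of all 30 libraries for 5 genes. From 6 h to 24 h, Nfkb2 changed by log2 0.26 ± 0.16 in SAP and -0.59 ± 0.17 in Sham. Relb changed by 0.50 ± 0.25 and -0.67 ± 0.26, and Tnip1 by 0.34 ± 0.12 and -0.29 ± 0.12. Zc3h12a changed by 0.90 ± 0.24 and -0.34 ± 0.24, and of these only its rise in SAP was called.

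Neutrophil marker genes were high in the same rats. The summed level of 10 neutrophil markers was 12820, 4822 and 16590 FPKM in SAP-24h rats 1, 2 and 3, against 1470, 216 and 9503 FPKM in Sham-24h. None of the 10 markers was near 0 throughout, and 0 of 10 were called in this comparison (4 had an unadjusted p under 0.05, and their median log2 fold change was 1.71). T cell markers went the other way, with 5 of 8 lower. Of the 10 lung tissue markers 2 were higher and 1 lower, and 1 of 10 macrophage and monocyte markers was higher. The part of these cells in the differences was not tested.

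Against Con-24h, the saline infusion, 6 of the 9 genes were higher in SAP-24h and none lower, where 12.1% of all genes were called higher. They were Birc3 (log2 1.49 ± 0.50), Nfkbiz (1.47 ± 0.29), Zc3h12a (1.22 ± 0.24), Relb (0.74 ± 0.26), Nfkb2 (0.52 ± 0.16) and Nfkb1 (0.35 ± 0.09). Nfkbiz had 2.26, 2.97 and 3.28 FPKM in Con-24h, all below the SAP-24h rats, as for 3 of the 9 and for 9.87% of all genes. Tnfaip3 was not called (log2 0.57 ± 0.28, adjusted p = 0.154 by edgeR). The calls of Nfkb2, Relb and Birc3 were lost without SAP-24h rat 1 or 3 or Con-24h rat 2 or 3 (adjusted p 0.0772 to 0.187). This left 3 of the 9 called without SAP-24h rat 3 or Con-24h rat 2 or 3. Without SAP-24h rat 1, 4 were called, as a gene outside the 6 gained a call. The neutrophil markers differed far more here, with 9 of 10 higher and Con-24h sums of 1056, 178 and 211 FPKM, and 7 of 8 T cell markers were lower. Macrophage and monocyte markers were higher for 2 and lower for 1 of 10, and 2 of 10 lung tissue markers and 1 of 8 B cell markers were lower. Their part was not tested. A model of the 2 groups alone called 0 of the 9 and 295 of all genes, and library totals in place of TMM scaling called 3 of the 9. Between the 2 control groups none of the 9 was called at either time. At 24 h 9.84% of all genes were called between Con and Sham and at 6 h 0% were. At an unadjusted p under 0.05 the counts were 1 and 0 genes of the 9, and DESeq2 called 1 (Nfkb2, at 24 h) and 0.

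**Figure D2:**
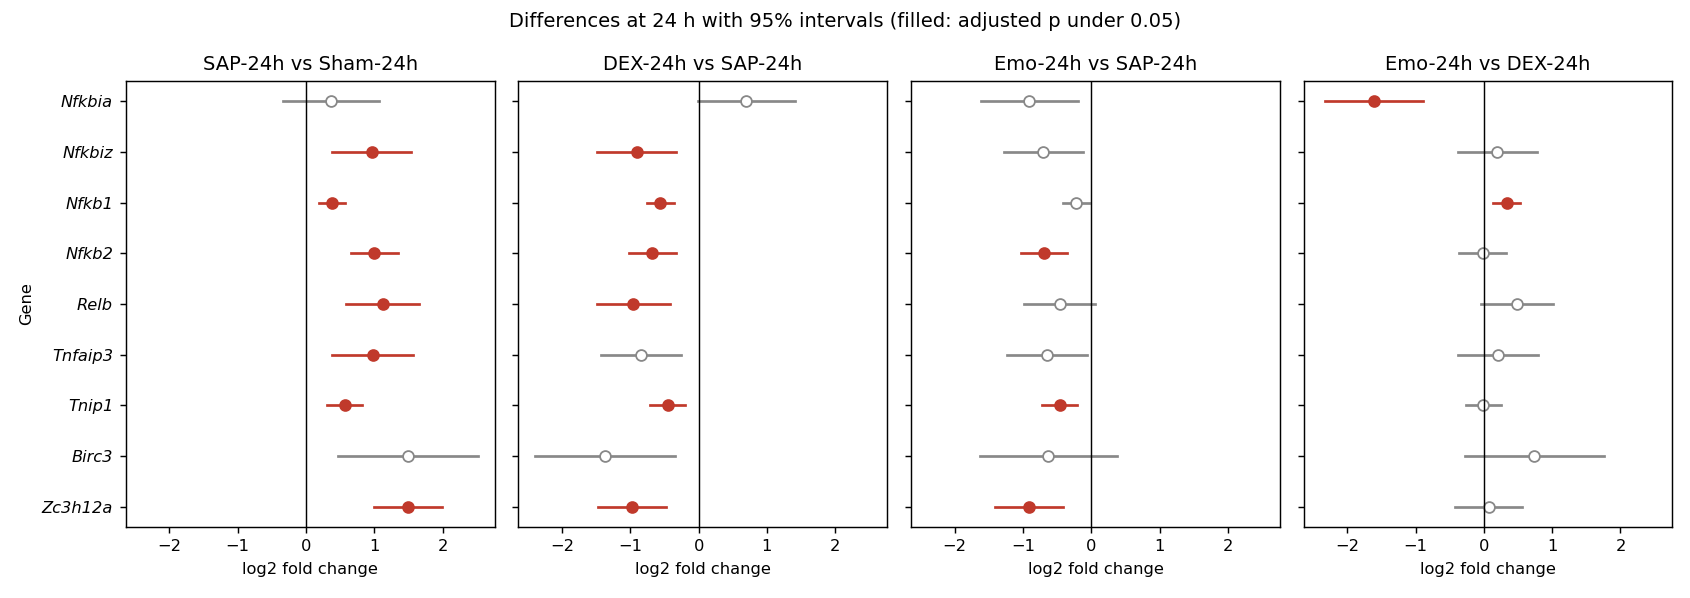
Log2 fold change (points) and 95% interval (lines) of the 9 genes in 4 comparisons at 24 h, 3 rats per group; filled red points have an adjusted p under 0.05. Of the 9 genes, 7 were called higher in SAP-24h than in Sham-24h, 6 were called lower in DEX-24h and 3 in Emo-24h than in SAP-24h, and Nfkbia and Nfkb1 differed between the 2 drugs.

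Dexamethasone is a synthetic glucocorticoid, and the comparison of DEX with SAP asks what it does to the injured lung. At 24 h, 6 of the 9 genes were lower in DEX-24h than in SAP-24h and none was higher, where 4.75% of all genes were called lower. The median log2 fold change of the 9 was -0.85, against 0.00 over all genes. None of the 9 was called with a change of at least 2-fold, against 3.73% of all genes. Nfkb1 stood at 17.8, 18.4 and 21.3 FPKM in DEX-24h, below every SAP-24h rat, and fell by 0.56 ± 0.09 on the log2 scale (adjusted p = 0.000923 by edgeR). Zc3h12a stood at 6.58, 4.87 and 6.05 FPKM and fell by 0.98 ± 0.24 (adjusted p = 0.0147). For Zc3h12a, DEX-24h rat 1 was all but level with SAP-24h rat 2, at 6.59 FPKM. These were the 2 of 9 genes whose DEX-24h libraries all lay below SAP-24h, as held for 8.65% of all genes. Nfkbia alone lay apart in the other direction, as did 16.4% of all genes.

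Nfkb2 stood at 15.9, 12.1 and 17.3 FPKM in DEX-24h and fell by 0.68 ± 0.16 on the log2 scale (adjusted p = 0.0144 by edgeR). Relb stood at 4.90, 3.78 and 5.70 FPKM and fell by 0.96 ± 0.26 (adjusted p = 0.0243). For both genes 1 DEX-24h rat lay just above SAP-24h rat 2. Tnip1 fell by 0.46 ± 0.12 (adjusted p = 0.0250) and Nfkbiz by 0.90 ± 0.28 (adjusted p = 0.0486), and the groups overlapped for each. Tnfaip3 (log2 -0.85 ± 0.29, adjusted p = 0.0698) and Birc3 (log2 -1.37 ± 0.49, adjusted p = 0.0902) were not called.

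The count rested on few libraries. It was 1 of 9, Nfkb1, without DEX-24h rat 2 or without SAP-24h rat 3, 2 without SAP-24h rat 1, 4 without DEX-24h rat 1 or 3, and 8 without SAP-24h rat 2, when Tnfaip3 and Birc3 were also called. Nfkb1 kept its call in all 6 fits, whereas the other 5 genes each lost it in 3 to 5 of them (adjusted p 0.0502 to 0.219 by edgeR). A model of the 2 groups alone called 0 of the 9 and 269 of all genes. The neutrophil sums were 2286, 1070 and 3021 FPKM in DEX-24h, all below those of SAP-24h, with 2 of 10 markers and 3 of 8 B cell markers lower. Their part in the differences was not tested.

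Nfkbia had its highest levels under dexamethasone. It stood at 689, 596 and 576 FPKM in DEX-6h and at 616, 648 and 597 FPKM in DEX-24h. The lowest of these 6 libraries was above the highest of the 24 others, which was Sham-24h rat 2 at 504 FPKM. No share of all genes is given for this split of 6 against 24 libraries. By pairs of groups, 8.76% of all genes were higher without overlap in DEX-6h vs SAP-6h, and 16.4% in DEX-24h vs SAP-24h. Against SAP of the same time the log2 difference of Nfkbia was 0.77 ± 0.34 at 6 h (adjusted p = 0.349 by edgeR) and 0.70 ± 0.34 at 24 h (adjusted p = 0.221), and neither was called. Against Sham-6h it was 2.51-fold higher in DEX-6h (log2 1.33 ± 0.35, adjusted p = 0.0182), which made it 1 of 9 genes called in that comparison, beside 9.75% of all genes. That call was lost without DEX-6h rat 1 or Sham-6h rat 1 or 3 (adjusted p 0.0534 to 0.0780). In that comparison 1 of 8 T cell and 2 of 10 macrophage and monocyte markers were lower, and of 10 lung tissue markers 1 was higher and 1 lower, and their part was not tested. Against Sham-24h the log2 difference was 1.07 ± 0.34 (adjusted p = 0.0622), and without Sham-24h rat 2 it was called (adjusted p = 0.00364). In DEX-24h vs Sham-24h none of the 9 was called and 6.97% of all genes were. At an unadjusted p under 0.05, 2 were, and DESeq2 called 1, Nfkbia.

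The comparison of Emo with SAP asks the same of emodin. In Emo-24h vs SAP-24h, 3 of the 9 genes were lower and none higher, where 5.02% of all genes were called lower. With library totals in place of TMM scaling none of the 9 was called. The median log2 fold change was -0.64, against 0.02 over all genes. None was called with a change of at least 2-fold, against 3.19% of all genes. No gene of the 9 had groups that did not overlap, as 6.23% of all genes had in this direction. Zc3h12a stood at 6.91, 5.58 and 6.68 FPKM in Emo-24h and fell by 0.91 ± 0.24 on the log2 scale (adjusted p = 0.0232 by edgeR). Nfkb2 stood at 17.9, 14.5 and 14.5 FPKM and fell by 0.69 ± 0.17 (adjusted p = 0.0148), and Tnip1 stood at 58.4, 59.4 and 54.3 FPKM and fell by 0.46 ± 0.12 (adjusted p = 0.0243). In all 3 genes it was SAP-24h rat 2, or for Tnip1 rat 1, that reached into the Emo-24h range.

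The other 6 genes were not called, though all 9 differences were below 0. Relb (log2 -0.46 ± 0.25, adjusted p = 0.246 by edgeR) and Tnfaip3 (-0.64 ± 0.28, adjusted p = 0.151) are examples. Nfkbia stood at 156, 132 and 343 FPKM in Emo-24h, 2 rats far below and 1 rat within the SAP-24h range (log2 -0.91 ± 0.34, adjusted p = 0.0962), and was called without Emo-24h rat 3 (adjusted p = 0.0116). Without Emo-24h rat 2 none of the 9 was called, without Emo-24h rat 1 or SAP-24h rat 3 only 1, Nfkb2, and without SAP-24h rat 1, 2 (Nfkb2 and Tnip1). A model of the 2 groups alone called 0 of the 9 and 0 of all genes. T cell markers were higher in Emo-24h for 2 of 8, 1 of 10 lung tissue markers was lower, and 1 of 10 neutrophil markers was lower, with sums of 4685, 6874 and 4526 FPKM. Their part was not tested.

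Emo-24h was also set against Sham-24h, where 0% of all genes were called. None of the 9 was called by edgeR or by DESeq2, and 2 had an unadjusted p under 0.05. The libraries nevertheless did not overlap for 6 of the 9, all higher in Emo-24h (Nfkb2, Nfkbiz, Relb, Tnip1, Birc3 and Zc3h12a), as for 5.49% of all genes. For Zc3h12a the log2 difference was 0.58 ± 0.24 (95% interval 0.09 to 1.08), and for Relb 0.66 ± 0.26 (0.13 to 1.19).

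The drugs were compared with each other at matched times, at the different doses and routes given above. At 24 h, 2 of the 9 genes differed between Emo-24h and DEX-24h, where 8.89% of all genes were called. Nfkbia was 3.04-fold lower in Emo-24h (log2 -1.61 ± 0.35, adjusted p = 0.00543 by edgeR). The groups were far apart, where 10.8% of all genes did not overlap in this direction, and the call held in each of the 6 fits without 1 library (log2 -2.26 to -1.38, adjusted p at most 0.0459) and in the model of the 2 groups alone. Nfkb1 was higher in Emo-24h, at 26.7, 25.5 and 23.7 FPKM, than in DEX-24h. All 3 rats were above all 3, as they were for Relb and Birc3 and for 18.6% of all genes, and the log2 difference was 0.33 ± 0.09 (adjusted p = 0.0273). It lost its call in every fit without 1 library except that without DEX-24h rat 3 (adjusted p 0.0794 to 0.148). Genes that were not called can still differ: the 95% interval for Zc3h12a was -0.42 to 0.56 and that for Birc3 -0.27 to 1.75. All 8 T cell markers and 7 of 8 B cell markers were higher in Emo-24h, as was 1 of 10 neutrophil markers, and 2 of 10 lung tissue markers were lower. Their part was not tested.

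At 6 h the 9 genes gave few calls. In SAP-6h vs Sham-6h none was called, where 0.270% of all genes were, and the median log2 fold change was 0.04. Nfkbia stood at 449, 316 and 320 FPKM in SAP-6h, above the 228, 299 and 241 FPKM of Sham-6h. Tnfaip3 stood at 5.85, 3.56 and 4.31 FPKM in SAP-6h and at 1.78, 4.10 and 2.40 FPKM in Sham-6h. Sham-6h rat 2 was within the SAP-6h range, and the log2 difference was 0.79 ± 0.29 (unadjusted p = 0.0112, adjusted p = 0.221 by edgeR). For Nfkbia, the 1 gene of the 9 whose groups did not overlap, as for 5.58% of all genes in this direction, it was 0.56 ± 0.34 (adjusted p = 0.524). None was called in SAP-6h vs Con-6h (0.207% of all genes), DEX-6h vs SAP-6h (0.979%), Emo-6h vs SAP-6h (0.0314%), Emo-6h vs Sham-6h (3.26%) or Emo-6h vs DEX-6h (2.88%). At an unadjusted p under 0.05 the counts in SAP-6h vs Sham-6h and these 5 were 1, 2, 1, 2, 4 and 2, and DESeq2 called 0 except for 1 in Emo-6h vs DEX-6h (Nfkb1). In that last comparison Nfkbia had a log2 difference of -0.92 ± 0.34 (adjusted p = 0.150), with DEX-6h above every Emo-6h rat, as for 9.21% of all genes. Nfkbia was called there in a model of the 2 groups alone. Genes that were not called could still have groups apart. In Emo-6h vs SAP-6h, Nfkb1, Nfkb2 and Relb were higher without overlap, as were 11.4% of all genes. In DEX-6h vs SAP-6h, Nfkbia, Nfkbiz and Tnip1 were higher (8.76%) and Birc3 was lower (8.74%). Nfkbia and Nfkbiz were higher in SAP-6h vs Con-6h (5.07%), Nfkbia in Emo-6h vs Sham-6h (9.35%) and Nfkb1 in Emo-6h vs DEX-6h (11.8%).

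From 6 h to 24 h, Nfkbiz (log2 1.22 ± 0.28, adjusted p = 0.0149 by edgeR) and Zc3h12a (0.90 ± 0.24, adjusted p = 0.0305) rose in SAP, 2 of 9 where 3.17% of all genes were called higher. Nfkbiz had 3.74, 3.28 and 2.89 FPKM in SAP-6h, so that SAP-24h rat 2, at 3.47 FPKM, was still at the 6 h level. Both calls were lost without SAP-24h rat 1 or 3 or SAP-6h rat 3, and that of Zc3h12a also without SAP-6h rat 2 (adjusted p 0.0621 to 0.150). Nfkb2 fell in DEX (log2 -0.57 ± 0.16, adjusted p = 0.0142), where 12.3% of all genes were called lower, and in Emo (-0.72 ± 0.17, adjusted p = 0.00204), where 16.8% were. It was 1 of the 9 called in each. In DEX, Tnip1 (-0.32 ± 0.12, adjusted p = 0.0564 by edgeR) was called as well with RLE scaling, by DESeq2 and in a model of the 2 groups alone. The call of Nfkb2 in DEX was lost without DEX-24h rat 2 or DEX-6h rat 3 (adjusted p 0.0746 to 0.0831), and that in Emo held in all 6 fits. Cell markers moved in the same comparisons: 3 of 8 T cell and 4 of 6 red blood cell markers were lower at 24 h in SAP, 8 of 8 T cell, 6 of 8 B cell and 1 of 10 neutrophil markers in DEX, and 5 of 6 red blood cell and 2 of 10 lung markers in Emo. Of 10 macrophage and monocyte markers, 2 were higher at 24 h in DEX, and 1 was higher and 1 lower in Emo. In SAP and in DEX 1 of 10 lung markers was lower. Their part was not tested. In Sham (0.992% of all genes) and Con (0.0126%) none of the 9 was called, although 3 and 1 had an unadjusted p under 0.05 and DESeq2 called Nfkb2 in Sham and none in Con. The log2 difference of Nfkb2 in Sham, -0.59 ± 0.17 (adjusted p = 0.0689 by edgeR), was about as large as that in DEX. Its Sham-24h libraries all lay below those of Sham-6h, as for 11.6% of all genes. In Con the log2 difference of Nfkb2 was -0.23 ± 0.16 (adjusted p = 0.669 by edgeR).

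Whether a difference itself changed with time was tested as an interaction. For Emo vs SAP, 2 of 9 genes had a difference at 24 h unlike that at 6 h, Nfkb2 (log2 -0.97 ± 0.23, adjusted p = 0.0298 by edgeR) and Zc3h12a (-1.25 ± 0.34, adjusted p = 0.0434), beside 3.65% of all genes. At 6 h the mean of both was higher in Emo than in SAP, and neither difference was called: Nfkb2 at 26.6, 22.3 and 25.9 FPKM in Emo-6h against 21.9, 18.0 and 21.1 in SAP-6h, and Zc3h12a at 8.91, 5.63 and 9.21 against 7.43, 5.32 and 5.84. For Zc3h12a the groups overlapped, Emo-6h rat 2 lying below SAP-6h rats 1 and 3. Leaving out 1 of the 12 libraries ended the call of Nfkb2 in 6 fits and of Zc3h12a in 8 (adjusted p 0.05004 to 0.134), among them the fits without Emo-24h rat 1 or 2, Emo-6h rat 1 or 3, SAP-24h rat 1 or SAP-6h rat 2. For SAP vs Sham (0.0314% of all genes) and DEX vs SAP (0.169%) none of the 9 was called. At an unadjusted p under 0.05, 7 and 6 were, and DESeq2 called 3 (Nfkb2, Tnip1 and Zc3h12a) and 5 (those and Nfkbiz and Nfkb1). By edgeR, the difference of SAP from Sham at 24 h was therefore not shown to exceed that at 6 h.

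The wider pathway was read from 58 other genes of NF-kB signalling, of which 54 passed the filter, on 55 rows. In SAP-24h vs Sham-24h, 14 rows were higher and none lower (median log2 0.28), where 6.79% of all genes were higher. The largest were Bcl3, an atypical IkB protein that binds the Nfkb1 and Nfkb2 products (log2 2.67 ± 0.42, adjusted p = 0.000938 by edgeR), Zfp36, which binds and destabilises cytokine mRNAs (1.52 ± 0.38, adjusted p = 0.0132), and Tnfrsf1a, the main tumour necrosis factor receptor (1.25 ± 0.20, adjusted p = 0.00106). In DEX-24h vs SAP-24h, 11 rows were lower and none higher (median -0.28, beside 4.75% of all genes lower), led by Bcl3 (-2.73 ± 0.42), the receptor gene Tnfrsf11a (-1.39 ± 0.27) and Tnfrsf1a (-1.13 ± 0.20). In Emo-24h vs SAP-24h, 10 were lower (median of the list -0.18, beside 5.02% of all genes lower), led by Bcl3 (-1.84 ± 0.41), Zfp36 (-1.41 ± 0.38) and Tnfrsf1a (-0.91 ± 0.20), and 1 was higher, the kinase gene Ikbke (0.61 ± 0.19). Leaving out 1 library at a time, Bcl3 and Tnfrsf1a kept their calls in all 6 fits against Sham-24h and in DEX-24h vs SAP-24h, as did Tnfrsf11a in the latter. Zfp36 was at 0.79 against Sham-24h (adjusted p = 0.157 by edgeR) and at -0.68 in Emo-24h (adjusted p = 0.233) without SAP-24h rat 1, and lost its call also without Sham-24h rat 1 or Emo-24h rat 1 or 2. In Emo-24h the calls of Bcl3 and Tnfrsf1a were lost without Emo-24h rat 2, that of Tnfrsf1a also without SAP-24h rat 1, and that of Ikbke held only without Emo-24h rat 1. Between the drugs the list was called about as often as all genes, of which 8.89% were: Emo-24h exceeded DEX-24h in 5 of 55 rows, led by Lta (1.92 ± 0.60), Zc3h12d (1.26 ± 0.40) and Tnfsf13b (1.14 ± 0.29), and was below it in Irak1 (-0.35 ± 0.09). Each of these 4 calls was lost in 3 to 5 of the 6 fits without 1 library, all of them without DEX-24h rat 3 and without Emo-24h rat 1. In SAP-6h vs Sham-6h 0 of 55 rows were called by edgeR, with 3 higher and 5 lower at an unadjusted p under 0.05, and in DEX-6h vs SAP-6h only the kinase gene Irak2 was (0.64 ± 0.16), a call that held in 1 of the 6 fits, that without SAP-6h rat 1.

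Of 28 target genes of NF-kB, 26 passed the filter. In SAP-24h vs Sham-24h, 6 were higher and none lower (median log2 0.77), where 6.79% of all genes were higher. The cytokine gene Il6 had 406, 3 and 23 reads in SAP-24h rats 1, 2 and 3, against 4, 2 and 3 reads in Sham-24h, 2, 1 and 2 in DEX-24h and 5, 4 and 0 in Emo-24h. It was called in all 3 comparisons with SAP-24h (fitted log2 5.71, -6.56 and -5.66), but rat 1 held most of its reads and rat 2 was at the level of the other groups, and without rat 1 it was called in none of them (adjusted p 0.232 to 0.343 by edgeR). It was followed by the neutrophil chemokine genes Cxcl2 (3.52 ± 0.64, adjusted p = 0.00203) and Cxcl1 (2.15 ± 0.60, adjusted p = 0.0229). Cxcl2 kept this call in all 6 fits without 1 library, and Cxcl1 was at 0.75 without SAP-24h rat 1 (adjusted p = 0.385) and also lost its call without Sham-24h rat 2 or 3. In DEX-24h vs SAP-24h, 8 were lower and none higher (median -1.08, beside 4.75% of all genes lower), with the endothelial selectin gene Sele (-3.49 ± 1.08) and the chemokine receptor gene Ccr7 (-2.57 ± 0.48) next to Il6. Sele had 436, 92 and 106 reads in SAP-24h and 56, 8 and 5 in DEX-24h, so that SAP-24h rat 1 held most of them. Its log2 difference was -2.26 without that rat (adjusted p = 0.245 by edgeR) and -5.09 without DEX-24h rat 1 (adjusted p = 0.0388), and the call was also lost without DEX-24h rat 2 or 3 (adjusted p 0.159 to 0.164). Ccr7 kept its call in all 6 fits. In Emo-24h vs SAP-24h, 3 were lower, Il6, Cxcl2 (-2.36 ± 0.61) and Gadd45b (-0.76 ± 0.16), and none was higher, beside 5.02% of all genes lower. Cxcl2 kept this call in 2 of 6 fits, losing it without Emo-24h rat 1 or 2 or SAP-24h rat 1 or 3, and Gadd45b kept it in all but the fit without Emo-24h rat 2. Between the drugs, where 8.89% of all genes were called, 6 were higher in Emo-24h, led by Ccr7 (3.78 ± 0.49), Ccl5 (2.00 ± 0.54) and Vcam1 (1.77 ± 0.37), and 2 were lower, Bcl2l1 (-1.73 ± 0.32), an inhibitor of cell death, and Gadd45b (-0.62 ± 0.16). The calls of Ccr7, Vcam1 and Bcl2l1 held in all 6 fits without 1 library, and those of Ccl5 and Gadd45b in 2 of 6, both being lost without DEX-24h rat 2 or 3 or Emo-24h rat 1 or 2. At 6 h, 0 of 26 were called by edgeR in SAP vs Sham (2 higher and 2 lower at an unadjusted p under 0.05) and 1 in DEX vs SAP, Bcl2l1 (1.74 ± 0.32), which was not called without DEX-6h rat 1 or SAP-6h rat 2 or 3.

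As a check of the drug, the glucocorticoid-responsive gene Fkbp5 stood at 169, 177 and 157 FPKM in DEX-24h and at 216, 167 and 208 FPKM in DEX-6h. Every DEX library was above all others, of which Sham-24h rat 2, at 110 FPKM, was the highest. Fkbp5 was higher in DEX-6h than in Sham-6h (log2 2.01, adjusted p = 0.00608 by edgeR) and lower in Emo-24h than in DEX-24h (-2.19, adjusted p = 0.00331), and so was Per1 (1.01, adjusted p = 0.00290, and -0.77, adjusted p = 0.0166). Tsc22d3 stands on 2 rows. The more abundant row, with a mean of 322 FPKM over the 30 libraries, was not called in DEX-6h vs Sham-6h (0.64, adjusted p = 0.164 by edgeR). In Emo-24h vs DEX-24h it was called lower (-1.21, adjusted p = 0.0111), a call lost without Emo-24h rat 1 or 2. The less abundant row was called in both (0.89, adjusted p = 0.0143, and -1.06, adjusted p = 0.00511). Fkbp5 kept both calls in all 6 fits without 1 library, while Per1 lost the latter without DEX-24h rat 3 or Emo-24h rat 1 or 2, and that row of Tsc22d3 lost the former without DEX-6h rat 3 or Sham-6h rat 1. None of the 3 was called in DEX-24h vs SAP-24h (Fkbp5 log2 1.04, adjusted p = 0.142). Of the whole list of 10 glucocorticoid-responsive genes, on 11 rows, 1 was higher in that comparison (Sgk1, named here after its values were seen, log2 1.92, adjusted p = 2.20e-05) and none was lower. The share of all genes called higher there was 2.99%. In Emo-24h vs SAP-24h 4 of the 11 rows were lower and none higher (median log2 -0.87), beside 5.02% of all genes lower, and in Emo-24h vs DEX-24h 10 were lower (median -1.39), beside 3.75%.

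Profiles over the 30 libraries show how the genes move beside each other. Correlations of log2(FPKM + 1) are given as descriptions, over libraries that share group, depth and cell make-up. Over the 28 pairs without Nfkbia the median Pearson r was 0.61 (range 0.17 to 0.86), and 0.57 after each group's mean was subtracted, that is, among rats of a group. For Nfkbia with the other 8 genes the median r was 0.06 (range -0.48 to 0.26), and -0.12 within groups. All 28 pairs without Nfkbia were positive, whereas its own pairs lay on both sides of 0. The median r of other pairs of genes was not computed, so these values have no reference beside them.

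**Figure D3:**
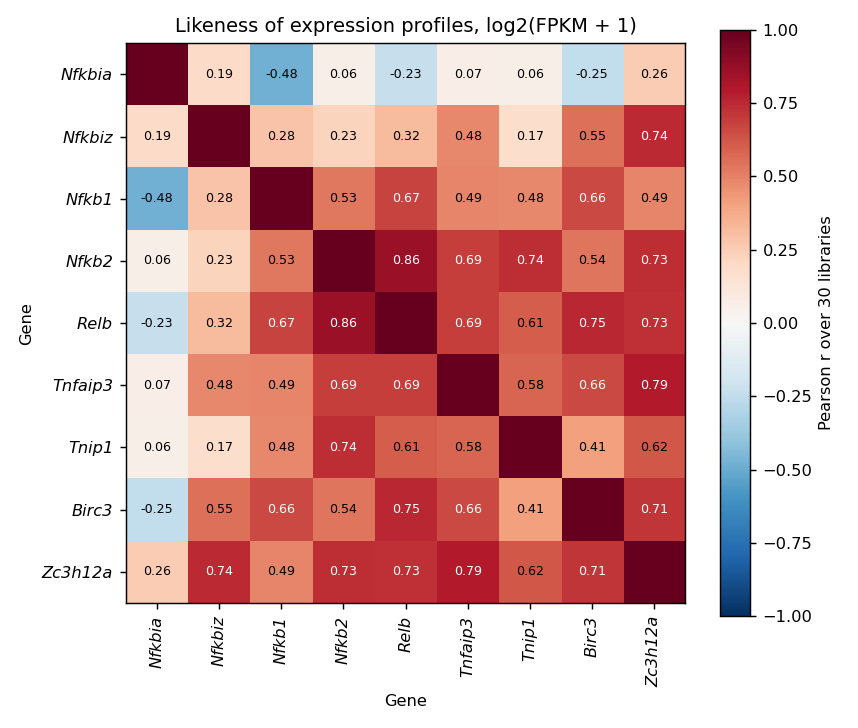
Pearson r between the 9 genes over 30 libraries on log2(FPKM + 1), red for positive and blue for negative values. The row of Nfkbia is pale or blue, from -0.48 to 0.26, while all pairs of the other 8 genes lie between 0.17 and 0.86.

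The gene most like Nfkbia, of 12004 protein-coding genes with a mean of 1 FPKM or more, was the locus LOC500300 (r = 0.92, rho = 0.87, 0.81 within groups, and 0.92 without the 2 libraries farthest from the median of Nfkbia). Fkbp5 also tracked it (r = 0.85, rho = 0.84, 0.62 within groups, and 0.85 without the 2 farthest), as did Tsc22d3 (r = 0.73, on its more abundant row) and Per1 (r = 0.72). Sham-24h rat 2, the control with the highest Nfkbia, had Fkbp5 at 110 FPKM against 33.6 and 39.9 FPKM in the other Sham-24h rats. Emo-24h rat 3, with Nfkbia at 343 FPKM, had Fkbp5 at 64.8 FPKM against 26.7 and 21.9 FPKM in its group. Con-24h rat 1 was an exception, with 435 FPKM of Nfkbia and 22.3 FPKM of Fkbp5.

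**Figure D4:**
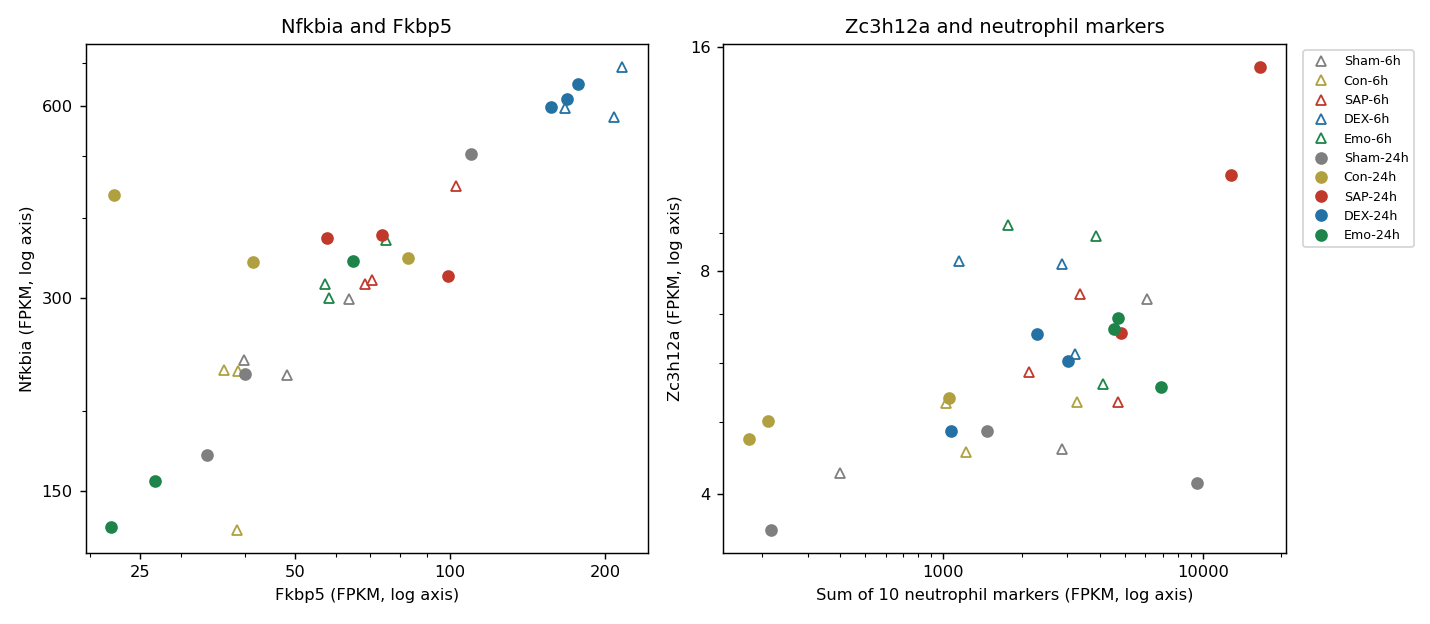
Left, Nfkbia against Fkbp5, and right, Zc3h12a against the summed level of 10 neutrophil markers, both in FPKM on log axes; each point is 1 of 30 rats, coloured by treatment, open triangles at 6 h and filled circles at 24 h. DEX rats sit together at the upper right on the left, and SAP-24h rats 1 and 3 stand alone at the upper right on the right.

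The mean standardised profile of the 9 genes was most like that of Ptpn1, a tyrosine phosphatase gene (r = 0.87, 0.84 within groups), followed by Rhbdf2 (0.81), which takes part in the release of tumour necrosis factor, Zdhhc18 (0.80), Dgat2 (0.80) and Bcl3 (0.80). Taken singly, Nfkbiz and Zc3h12a were each most like the chemokine gene Cxcl2 (r = 0.86 and 0.82, and 0.72 and 0.64 without the 2 libraries farthest from each gene's median). Birc3 was most like Sod2 (0.87), an antioxidant enzyme gene that NF-kB is known to induce. Nfkb2 was most like the kinase gene Mapkapk2 (0.93), Relb like Zdhhc18 (0.86), Tnfaip3 like Zc3h12a (0.79), Tnip1 like the phosphatase gene Ptpn6 (0.78) and Nfkb1 like Htt (0.80).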

How the data were processed

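RNA-seq of lung was analysed in 30 libraries, 10 groups of 3 rats. The authors aligned reads with TopHat2 to rat_ensembl_v6 and kept those mapping to 1 place; the deposited counts are raw reads per gene, and the deposited FPKM are scaled to gene length and depth. Libraries were directional. The counting program, and whether gene counts used strand, are not given in the sources used here. Counts were fitted in R 4.3.3 with edgeR 4.0.16: filterByExpr (minimum count 10, minimum total 15), TMM scaling, a quasi-likelihood model of 10 groups (20 residual degrees of freedom) and Benjamini-Hochberg adjustment over 15932 genes, in 21 comparisons and 3 interactions. Of the rows, 2 named no gene (at most 0.00439% of a library's reads) and were left out. SE is that of the log2 fold change. FPKM with a pseudocount of 1 served correlations, in Python 3.11.15. The steps were tested on simulated data. All 10 members are named; of the 2 other lists up to 3 genes called each way with the largest log2 fold change; Fkbp5, Tsc22d3 and Per1 as the drug check; and the genes of highest r. The members and lists were chosen with earlier results of these data known. Alternatives were RLE scaling, library totals, DESeq2 1.42.0, no filter, the compared groups alone, a 2-fold minimum, a replicate block, other settings of the correlations and each library left out in turn. Counting depth of the 9 tested members, that is, all but Tnf, was 121 reads or more per library.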

Additional observations from a re-analysis of the deposited data

Results flagged for a closer look

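For 2 genes the difference between Emo and SAP at 24 h was unlike that at 6 h, by the interaction term of the edgeR model. For Nfkb2 the interaction was -0.97 on the log2 scale (adjusted p = 0.0298), with Emo below SAP in the means at 24 h and above it at 6 h. For Zc3h12a it was -1.25 (adjusted p = 0.0434), with the same signs. Neither was called with library totals or in a model of the compared groups alone, and leaving out 1 library ended the call of Nfkb2 in 6 of 12 fits and that of Zc3h12a in 8 of 12. The cause was not tested.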

How the results depend on the processing

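None of the 89 values of single genes changed direction in the 832 alternatives run on them, of which those for genes other than the members left out 1 library each and were chosen after seeing the data. Of these alternatives 621 left the call or value as it was, 194 lost a call, 16 gained one, and 1 moved the correlation of Nfkbia with LOC500300, from 0.92 to a Spearman's rho of 0.87. In models of the compared groups alone, with fewer libraries, the number of the 9 genes called was 0 for SAP-24h against Sham-24h, Con-24h, DEX-24h, Emo-24h or SAP-6h and for the Emo interaction. It was 1, Nfkbia, for Emo-24h vs DEX-24h and for Emo-6h vs DEX-6h, and 2 for DEX-24h vs DEX-6h. With a 2-fold minimum it was 2 for SAP-24h vs Sham-24h, 3 for SAP-24h vs Con-24h, 1 for Emo-24h vs DEX-24h, SAP-24h vs SAP-6h and the Emo interaction, and 0 for DEX-24h or Emo-24h against SAP-24h and for either drug at 24 h against 6 h.

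With library totals in place of TMM scaling, chosen after seeing the data, it was 4 for SAP-24h vs Sham-24h, 3 for SAP-24h vs Con-24h, and 0 for Emo-24h vs SAP-24h and the Emo interaction. That scaling moved the median log2 fold change of all genes by -0.17 in SAP-24h vs Sham-24h, 0.12 in DEX-24h vs SAP-24h and 0.21 in Emo-24h vs SAP-24h. RLE scaling gave 2 for DEX-24h vs DEX-6h and 4 for the Emo interaction, and no filter gave 1 for Emo-24h vs DEX-24h. DESeq2 gave 5 for Emo-24h vs SAP-24h, 2 for DEX-24h vs DEX-6h, 3, 5 and 4 for the SAP, DEX and Emo interactions, and 1 for Emo-6h vs DEX-6h, Con-24h vs Sham-24h, DEX-24h vs Sham-24h and Sham-24h vs Sham-6h. The cause was not tested.

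Leaving out 1 library at a time gave 5 to 8 for SAP-24h vs Sham-24h, 3 to 6 for SAP-24h vs Con-24h, 1 to 8 for DEX-24h vs SAP-24h, 0 to 4 for Emo-24h vs SAP-24h, 1 to 2 for Emo-24h vs DEX-24h and Emo-24h vs Emo-6h, 0 to 2 for SAP-24h vs SAP-6h, 0 to 3 and 0 to 5 for the DEX and Emo interactions, and 0 to 1 for DEX-6h vs Sham-6h, Emo-6h vs DEX-6h, DEX-24h vs Sham-24h and DEX-24h vs DEX-6h. Same-numbered rats did not vary together as a set (median r -0.0065 over 135 pairs, of which 34 were over 0.1). For rats of other numbers the median r was 0.0097 over 270 pairs, of which 74 were over 0.1. No pairing by number was seen by this measure, which cannot exclude one among some rats. The replicate block gave 7 for SAP-24h vs Sham-24h, 6 for DEX-24h vs SAP-24h and 3 for Emo-24h vs SAP-24h, as without it. The median r between the 9 genes, 0.53, was 0.48 as Spearman's rho and 0.56 on log2 CPM.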
